A study of Arabidopsis thaliana with 6 samples.

Results

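Histone H4 of Arabidopsis thaliana is encoded by 8 genes, AT1G07660, AT1G07820, AT2G28740 (annotated as HIS4), AT3G45930, AT3G46320, AT3G53730, AT5G59690 and AT5G59970. They were chosen by identifier, as the H4 genes among the 32833 genes of the count table, and all 8 passed the filter on low counts. The libraries come from root-tip protoplasts, that is, cells freed of their walls, which were passed through a sorter that used DNA content in place of the stage of the cell cycle. There were 2 libraries for each gate, and the gates took cells of 2n content for G1, cells of 4n content for G2M and the cells between them for S. Every library carried the same genotype, Col0/H2B-RFP/CDT1a-GFP, which is the Col-0 accession with a red reporter fused to a histone H2B and a green reporter fused to CDT1a, a replication licensing factor degraded as replication starts. All plants were seedlings grown for 7 days, and no other treatment separates the gates. No source used here states the promoters that drive the reporters, and reads from the H2B reporter could be counted to an H2B gene, and reads from the CDT1a reporter to CDT1A, though neither to an H4 gene. Cells that no longer divide, or that copy their DNA without dividing, can fall in any of the gates.

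Histone H4 binds histone H3, and the H3-H4 tetramer forms the centre of the nucleosome on which a pair of H2A-H2B dimers is placed. New H4 is needed as DNA is copied, and in plants and animals most of it is made during S phase and delivered to chromatin by chaperones such as CAF-1. Plants transcribe H4 from several genes, and their histone mRNAs carry poly(A) tails, unlike most replication-dependent histone mRNAs of animals.

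The 8 genes were counted in libraries of 13114711 to 208406910 reads. Their counts lay between 139 and 29188 per gene and library, so that a count of 3 (0.0144 to 0.229 CPM, counts scaled to 1000000 per library) is far below any of them, and they took 0.0280% to 0.0717% of all counts. Values are given as CPM scaled by the trimmed mean of M values (TMM), and for comparisons between genes as TPM, which also divides by exon length. A panel of 8 root genes summed to between 271 and 323 CPM in every library, but its members moved apart. In G2M against G1, 2 of the 8 fell, the root cap regulator SMB (-2.43, with means of 94.8 CPM in G1, 46.2 CPM in S and 17.8 CPM in G2M) and the epidermal regulator MYB66 (-0.84), while 4 rose, GL2 (2.08), SCR (2.01), SHR (1.40) and PLT2 (0.69), all log2 fold changes called by edgeR. Of all genes tested, 17.1% were called lower and 23.2% higher in that comparison. SMB and MYB66 thus ran G1, S, G2M from high to low as the H4 sum did, and the part of these cell-type markers in the H4 results was not tested. A panel of 4 leaf genes summed to between 1.16 and 3.58 CPM, with RBCS2B, a small subunit of the carbon-fixing enzyme Rubisco, at 0 in both G2M libraries. The 6 mitosis genes (B-type cyclins, their kinases, KNOLLE and CDC20.1) summed to 26.6 to 42.4 CPM in G1, 512 to 587 CPM in S and 623 to 698 CPM in G2M. The 12 replication genes (CDT1A, CDC6, MCM, PCNA and ribonucleotide reductase genes) summed to 1122 to 1138 CPM in G1, 596 to 809 CPM in S and 1139 to 1195 CPM in G2M, so the S gate did not hold the highest level of replication mRNAs. The share of mitochondrial genes was 8.23% and 6.53% of counts in the G1 libraries and 2.94% to 3.67% in the others. Without plastid and mitochondrial genes, 3, 5 and 8 H4 genes were called lower in the pairwise comparisons given next, as with them. The S libraries differed more from each other than those of the other gates (SD of the log2 difference over genes 0.295 in G1, 0.499 in S and 0.325 in G2M), and S replicate 2 was the shallowest of all. Without either S library, the H4 genes called lower in each pairwise comparison were the same as with both, while how many of all genes were called changed. Nothing in the labels says that libraries of a gate came from separate sorts or plantings, so the p-values measure the spread between these libraries, which may be technical.

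By the longest coding sequence of each, all 8 genes encode 1 identical protein of 103 amino acids, from 312 coding bases with the stop codon (RefSeq annotation, TAIR10.1). The coding DNA differs at 103 of those 312 positions. Coding sequences fell into 3 close pairs, AT1G07660 with AT1G07820 (98.1% identical, 6 differences), AT3G45930 with AT3G46320 (97.4%, 8 differences) and AT5G59690 with AT5G59970 (97.1%, 9 differences). Every other pairing had between 78.8% and 87.8% identity, and AT2G28740 and AT3G53730 had no close partner. Coding bases 97 to 216 are shown for the 8 genes because within the coding sequence reads of pair mates are told apart by such differences, beside those in the UTRs. Capitals mark the bases that differ from AT5G59690, the gene with the highest level.
AT1G07660: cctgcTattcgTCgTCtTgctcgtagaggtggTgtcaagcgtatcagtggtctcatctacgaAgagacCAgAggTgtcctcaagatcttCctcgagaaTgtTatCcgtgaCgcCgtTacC
AT1G07820: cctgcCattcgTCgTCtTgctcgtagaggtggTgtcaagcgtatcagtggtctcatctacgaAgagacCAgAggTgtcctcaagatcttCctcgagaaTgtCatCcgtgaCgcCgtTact
AT3G45930: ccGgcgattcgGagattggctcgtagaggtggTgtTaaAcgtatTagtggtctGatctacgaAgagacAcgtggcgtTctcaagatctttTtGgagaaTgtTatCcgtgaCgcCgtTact
AT3G46320: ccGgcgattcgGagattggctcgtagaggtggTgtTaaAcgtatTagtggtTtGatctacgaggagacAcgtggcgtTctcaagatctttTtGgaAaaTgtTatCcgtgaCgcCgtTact
AT5G59690: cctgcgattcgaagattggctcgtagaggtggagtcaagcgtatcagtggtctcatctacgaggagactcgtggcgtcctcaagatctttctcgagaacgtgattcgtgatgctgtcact
AT5G59970: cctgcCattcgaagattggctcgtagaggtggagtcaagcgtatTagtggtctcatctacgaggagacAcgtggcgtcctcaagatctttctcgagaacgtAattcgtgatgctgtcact
AT2G28740: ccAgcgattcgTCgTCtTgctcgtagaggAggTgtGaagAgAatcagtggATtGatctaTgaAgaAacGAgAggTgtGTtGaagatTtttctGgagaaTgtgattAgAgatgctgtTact
AT3G53730: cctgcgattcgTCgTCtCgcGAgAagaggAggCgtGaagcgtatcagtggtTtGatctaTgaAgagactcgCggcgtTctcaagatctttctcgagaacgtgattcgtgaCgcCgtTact
In this stretch AT5G59970 differed from AT5G59690 at 4 bases, while the others differed at 18 to 30.

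**Figure D1:**
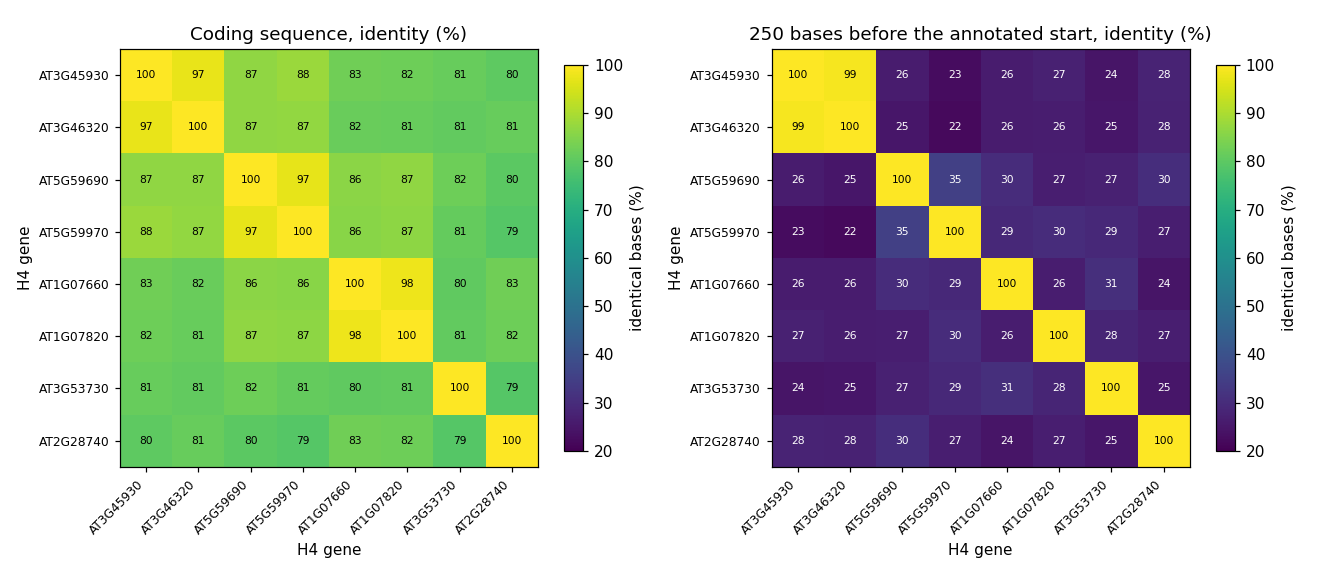
Identity in percent for each pairing of the 8 H4 genes (rows and columns, as colour and printed value), over the coding sequence (left) and over the 250 bases before the annotated start (right). In coding sequence the 3 close pairs stand at 97.1% to 98.1%. Upstream bases are compared at the same distance from the start, without gaps, and shifted likeness is not seen. By that measure only AT3G45930 with AT3G46320 stays close, at 98.8%.

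Whether a read can be placed depends on its length, which no source used here states, and on the mate that shares its sequence. With windows of 100 bases along the longest transcript, every window of AT2G28740, AT3G53730, AT5G59690 and AT5G59970 was found in no transcript of another gene. For AT1G07820 and AT5G59970 that transcript spans the whole gene, with bases that are intron in another transcript. The exon lengths used for their TPM, 978 and 899 bases, include those bases too. The unique share was 93.9% for AT1G07660, 95.7% for AT1G07820, 88.9% for AT3G45930 and 87.9% for AT3G46320. With windows of 50 bases it was 71.5% for AT1G07660, 80.6% for AT1G07820, 74.3% for AT3G45930 and 72.1% for AT3G46320. At that length it was also 91.5% for AT5G59690 and 93.1% for AT5G59970, and AT1G07660 shared windows with AT1G30784 and AT5G01080, which are not H4 genes. At 150 bases no gene was under 97.8%. The levels of AT1G07660, AT1G07820, AT3G45930 and AT3G46320 are therefore uncertain as single values, and with short reads those of AT5G59690 and AT5G59970 too. The sum over the family is not affected by exchange between mates. It would be too low if reads that map to several genes were dropped, and how these were treated is not stated. With short reads, exchange of AT1G07660 with AT1G30784 or AT5G01080 could change the sum too.

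The 8 genes lie on 4 chromosomes, and none overlaps another annotated gene. AT1G07660 spans chr1:2368833-2369735 on the plus strand and AT1G07820 spans chr1:2421089-2422066 on the minus strand, both with an intron in the 5′ UTR of at least 1 transcript. In 1 of its 2 transcripts AT1G07660 also has an intron within the coding region. AT2G28740 spans chr2:12329345-12330059 on the minus strand, has no intron and has the lowest exon GC content of the family, 35.4%, against 41.9% in AT5G59690. Chromosome 3 holds AT3G45930 at chr3:16883316-16884009 on the plus strand, AT3G46320 at chr3:17019785-17020428 on the minus strand and AT3G53730 at chr3:19912385-19913515 on the minus strand, which has the longest exonic sequence with 1131 bases. Chromosome 5 holds AT5G59690 at chr5:24051474-24052218 on the plus strand and AT5G59970 at chr5:24145831-24146729 on the minus strand, where 1 transcript has an intron in the 3′ UTR.

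Upstream, bases were compared at the same distance from each annotated start, without gaps, so sequence that is alike but shifted is not seen. By that measure, only AT3G45930 with AT3G46320 stayed close among the coding pairs. Over the 250 bases before the annotated start, AT3G45930 and AT3G46320 were 98.8% identical, with 3 differences, whereas AT5G59690 and AT5G59970 matched at 35.2% of positions and AT1G07660 and AT1G07820 at 26.4%. The 160 bases before the start are shown for 6 genes, on the strand of each gene, because they hold the core of the octamer motif known from plant H4 promoters. Capitals mark the octamer CGCGGATC or, where only its core is present, CGGATC. The windows are chr3:16883156-16883315 for AT3G45930, chr3:17020429-17020588 for AT3G46320, chr5:24051314-24051473 for AT5G59690, chr5:24146730-24146889 for AT5G59970, chr1:2368673-2368832 for AT1G07660 and chr2:12330060-12330219 for AT2G28740.
AT3G45930: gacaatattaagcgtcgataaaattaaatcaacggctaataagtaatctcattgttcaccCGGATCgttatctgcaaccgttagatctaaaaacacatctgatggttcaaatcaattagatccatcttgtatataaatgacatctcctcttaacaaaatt
AT3G46320: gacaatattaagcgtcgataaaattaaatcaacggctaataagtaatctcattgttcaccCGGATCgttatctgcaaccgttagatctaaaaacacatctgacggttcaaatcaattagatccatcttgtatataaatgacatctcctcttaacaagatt
AT5G59690: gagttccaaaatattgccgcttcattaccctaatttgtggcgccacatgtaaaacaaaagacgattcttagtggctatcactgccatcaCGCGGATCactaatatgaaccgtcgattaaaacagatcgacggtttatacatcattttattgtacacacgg
AT5G59970: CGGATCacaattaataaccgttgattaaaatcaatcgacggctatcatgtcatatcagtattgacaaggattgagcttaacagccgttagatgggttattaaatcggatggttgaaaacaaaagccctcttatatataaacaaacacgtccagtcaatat
AT1G07660: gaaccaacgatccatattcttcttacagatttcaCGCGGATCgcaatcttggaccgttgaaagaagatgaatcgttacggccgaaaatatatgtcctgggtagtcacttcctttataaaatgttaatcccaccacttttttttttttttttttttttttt
AT2G28740: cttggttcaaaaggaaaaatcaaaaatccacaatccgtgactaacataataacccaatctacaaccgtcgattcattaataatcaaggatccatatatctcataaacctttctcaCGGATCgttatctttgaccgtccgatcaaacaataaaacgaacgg
The windows of AT3G45930 and AT3G46320 differ at 2 of the 160 bases. In AT5G59690 and AT5G59970 the core begins 69 and 160 bases before the start, so the bases around it were not set against each other.

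Motifs were searched on both strands of the 250 bases before the start of each of 27443 genes. The full octamer CGCGGATC was found in 2 of the 8 H4 genes, AT1G07660 and AT5G59690, against 0.135% of all genes. Its core CGGATC, a motif chosen after the upstream sequences had been seen and one that the octamer contains, was found in 6 of 8, against 3.88% of all genes, and was not found in the windows of AT1G07820 and AT3G53730. An E2F site, TTTCCCGC or TTTGGCGC, stood 237 bases before the start of both AT3G45930 and AT3G46320 and in no other H4 gene, against 0.958% of all genes. The letters AACGG, the core of the element bound by mitotic activators, were in 5 of 8, against 20.6% of all genes, and CCAAT was in 3 of 8, against 46.0%. The hexamer ACGTCA was in 0 of 8 H4 windows and in 7 of 8 H2B windows, against 7.69% of all genes. The nonamer CATCCAACG and the TCP site GGNCCCAC were each in 0 of 8, against 0.149% and 1.09% of all genes. These matches describe the letters only.

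Summed over the 8 genes, the TMM-scaled level of H4 mRNA was highest in G1 and lowest in G2M. The sum was 646 and 669 CPM in the G1 libraries, 524 and 539.6 CPM in the S libraries and 298 and 367 CPM in the G2M libraries. No library of one gate reached the range of another. The S mean of 532 ± 11.03 CPM was 19.1% below the G1 mean of 658 ± 16.3 CPM (SD, n = 2 each). The G2M mean of 333 ± 49.0 CPM was 37.4% below that of S and 49.4% below that of G1. Per length the order was the same, with 1359.8 ± 52.4 TPM in G1, 1079 ± 43.0 TPM in S and 631 ± 85.1 TPM in G2M. The sum was not computed with offsets for GC content and length. With them no H4 gene was called lower in S than in G1. AT1G07660, AT1G07820, AT2G28740, AT3G53730 and AT5G59970 then stood at 0.074 to 0.45 (log2), and AT3G45930, AT3G46320 and AT5G59690 at -0.39 to -0.12. CPM and TPM are shares of the counts of a library, so they give no level per cell. In such mixed-cell libraries, fewer cells that make H4, less H4 mRNA per cell and more mRNA of other genes cannot be told apart.

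**Figure D2:**
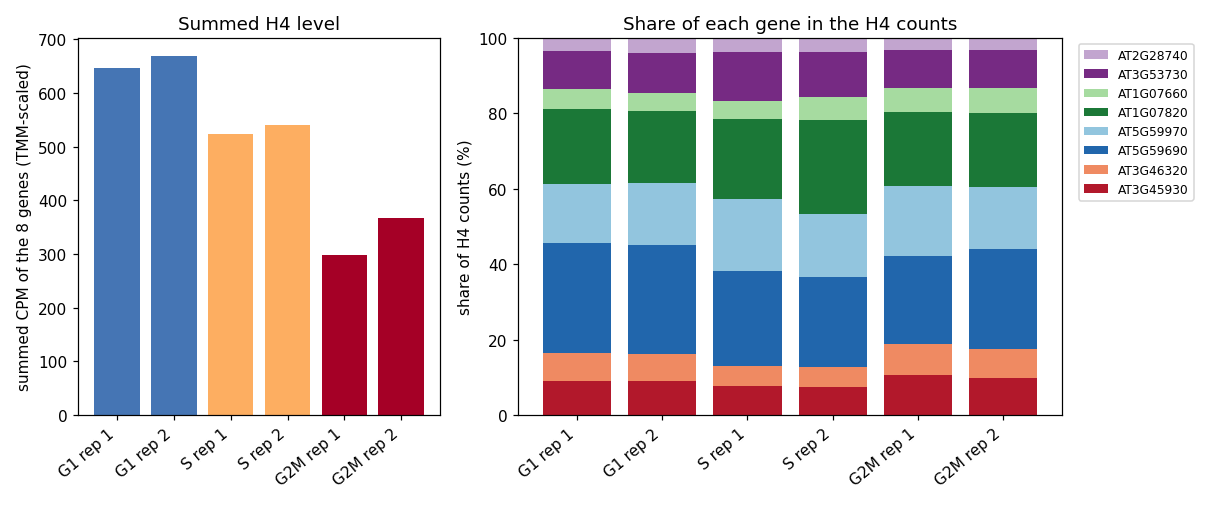
Summed H4 level in CPM per library in the G1, S and G2M gates, and the percent share of each H4 gene in the H4 counts of each library. The sum is 646 and 669 CPM in G1, 524 and 539.6 CPM in S and 298 and 367 CPM in G2M, and the share of AT3G45930 with AT3G46320 is lowest in the S libraries.

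Between genes, AT5G59690 had the highest level per length in every gate, at 434 TPM in G1, 298 TPM in S and 174 TPM in G2M. AT2G28740 had the lowest, at 58.2, 47.5 and 22.7 TPM in the same gates. In G1 the order between them was AT1G07820 (223 TPM), AT5G59970 (197 TPM), AT3G45930 (144 TPM), AT3G46320 (125 TPM), AT3G53730 (102 TPM) and AT1G07660 (77.3 TPM), and no neighbours in it overlapped between libraries. In S the order was AT1G07820 (213 TPM), AT5G59970 (181 TPM), AT3G53730 (99.8 TPM), AT3G45930 (98.3 TPM), AT3G46320 (74.4 TPM) and AT1G07660 (67.7 TPM). There AT3G53730 overlapped AT3G45930, and AT3G46320 overlapped AT1G07660. In G2M the order was AT1G07820 (103 TPM), AT5G59970 (99.4 TPM), AT3G45930 (75.7 TPM), AT3G46320 (63.3 TPM), AT1G07660 (47.5 TPM) and AT3G53730 (45.9 TPM). The libraries of AT1G07820 and AT5G59970 overlapped in it, as did those of AT1G07660 and AT3G53730. AT3G53730 thus moved ahead of AT3G45930 and AT3G46320 in mean level in S, and stood behind both in G1 and G2M.

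**Figure D3:**
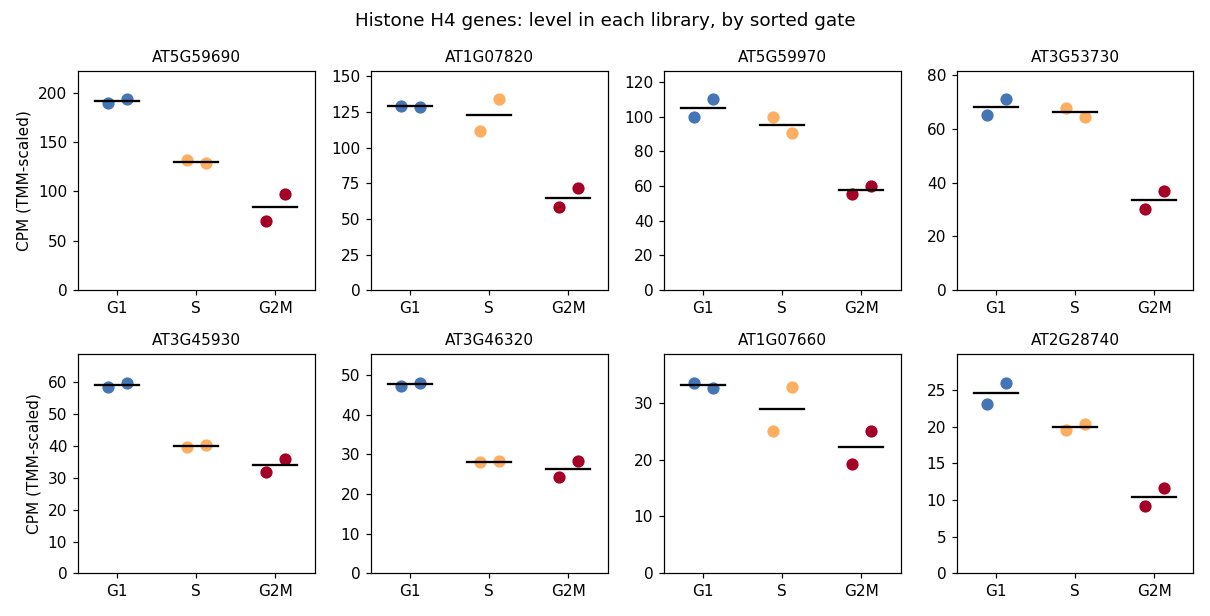
CPM of each H4 gene in the 6 libraries (points, 2 per gate) with the gate means (lines), gates in the order G1, S, G2M. In all 8 genes both G2M libraries lie below both G1 libraries, while the S libraries of AT1G07660, AT1G07820, AT3G53730 and AT5G59970 overlap those of G1 and those of AT3G46320 overlap G2M. The share of all genes with such an order was not counted.

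In the S gate compared with the G1 gate, 3 H4 genes fell and none rose. Over all 25364 genes tested, 7.28% were called lower and 13.9% higher in this comparison (edgeR quasi-likelihood test, Benjamini-Hochberg adjusted p under 0.05), 21.2% in all. That split depends on the scaling, since upper-quartile factors gave 3026 genes lower and 2399 higher, against 1847 and 3526 with TMM. The median log2 fold change of the 8 genes was -0.26, against 0.08 over all genes. Without G1 replicate 1 or 2, AT3G46320 stood at -0.78 or -0.75, AT3G45930 at -0.58 or -0.54 and AT5G59690 at -0.57 or -0.54. AT3G45930 and AT5G59690 were then not called, and fewer of all genes were called lower too. The 1 library left in G1 is there assumed to vary like those of the other gates, and this holds for each fit that leaves out a library. When each gene's GC content and length entered the fit as offsets, no H4 gene was called, and AT3G46320 stood at -0.39 (edgeR adjusted p = 0.0522).

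AT3G46320 had 27.998 and 28.31 CPM in the S libraries, against 47.3 and 48.1 CPM in the G1 libraries. Both S libraries lay well below both G1 libraries, and the members of each gate were close together. Its log2 fold change was -0.76 ± 0.14 (SE, adjusted p = 0.00223 by edgeR). AT3G45930, its close pair mate, had 39.8 and 40.4 CPM in S, against 58.3 and 59.8 CPM in G1. The gates again did not overlap, and the log2 fold change was -0.56 ± 0.13 (SE, edgeR adjusted p = 0.00946). AT5G59690, the most abundant gene, had 132 and 129 CPM in S, against 189.8 and 193 CPM in G1. Here too both S libraries were lower, with a log2 fold change of -0.56 ± 0.15 (SE, edgeR adjusted p = 0.0180). AT5G59690 alone accounted for 48.6% of the summed difference between S and G1, AT3G46320 for 15.5% and AT3G45930 for 15.1%.

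The other 5 genes did not pass the test between S and G1. AT2G28740 had 19.6 and 20.4 CPM in S, against 23.2 and 26.0 CPM in G1, so both S libraries were lower, with a log2 fold change of -0.30 (95% interval -0.67 to 0.07, edgeR adjusted p = 0.268). AT1G07660 had 25.1 and 32.7 CPM in S, against 33.5 and 32.6 CPM in G1, and 1 S library lay within the G1 range. Its log2 fold change was -0.21 (interval -0.59 to 0.17, edgeR adjusted p = 0.489), and it was -0.018 without S replicate 1 and -0.43 without S replicate 2. AT5G59970 had 100.02 and 90.7 CPM in S, against 99.7 and 109.9 CPM in G1, which overlap (log2 fold change -0.13, interval -0.41 to 0.14). AT1G07820 had 112 and 134 CPM in S, against 129 and 128 CPM in G1, with the S libraries on either side (log2 fold change -0.07, interval -0.38 to 0.23). AT3G53730 had 67.9 and 64.5 CPM in S, against 65.0 and 70.9 CPM in G1, and also overlapped (log2 fold change -0.04, interval -0.33 to 0.26). The interval of AT3G45930, -0.85 to -0.27, overlaps these last 3 intervals, and the difference between the genes was not tested.

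In the G2M gate compared with the S gate, 5 H4 genes fell and none rose. Of all genes tested, 10.1% were called lower and 9.46% higher (edgeR), 19.6% in all. The median log2 fold change of the H4 genes was -0.68, against -0.10 over all genes. The comparison shares the S libraries with the comparison above, so the steps are not independent of each other. Without G2M replicate 1, AT5G59690 stood at -0.38 against -0.63 with it, AT2G28740 at -0.74 against -0.92 and AT5G59970 at -0.63 against -0.73. These genes were then not called, and fewer of all genes were called lower too.

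AT3G53730 had 30.2 and 36.8 CPM in G2M, against 67.9 and 64.5 CPM in S. Both G2M libraries were far below both S libraries, with a log2 fold change of -0.98 ± 0.14 (SE, edgeR adjusted p = 6.29e-04). AT1G07820 had 58.0 and 71.6 CPM in G2M, against 112 and 134 CPM in S, with no overlap and a log2 fold change of -0.91 ± 0.14 (SE, edgeR adjusted p = 0.00103). AT5G59970 had 55.3 and 60.0 CPM in G2M, against 100.02 and 90.7 CPM in S. Its gates did not overlap, and its log2 fold change was -0.73 ± 0.13 (SE, edgeR adjusted p = 0.00232). AT2G28740 had 9.26 and 11.7 CPM in G2M, against 19.6 and 20.4 CPM in S, and it fell by 0.92 on the log2 scale (SE 0.18, edgeR adjusted p = 0.00447). AT5G59690 had 69.7 and 97.9 CPM in G2M, which lie apart from each other and below the 132 and 129 CPM of S. Its log2 fold change was -0.63 ± 0.15 (SE, edgeR adjusted p = 0.0121). The largest shares of the summed difference came from AT1G07820 (29.1%), AT5G59690 (23.4%), AT5G59970 (18.9%) and AT3G53730 (16.4%).

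AT3G46320, AT3G45930 and AT1G07660 did not pass the test between G2M and S. AT3G46320 had 24.4 and 28.28 CPM in G2M, against 27.998 and 28.31 CPM in S, and the gates overlapped (log2 fold change -0.09, interval -0.41 to 0.22, edgeR adjusted p = 0.678). AT3G45930 had 31.9 and 35.9 CPM in G2M, against 39.8 and 40.4 CPM in S, both lower (log2 fold change -0.24, interval -0.53 to 0.06, edgeR adjusted p = 0.231). AT1G07660 had 19.3 and 25.1 CPM in G2M, against 25.1 and 32.7 CPM in S, where the nearest libraries almost touched (log2 fold change -0.36, interval -0.75 to 0.03, edgeR adjusted p = 0.175). That value was -0.12 without S replicate 2 and -0.57 without G2M replicate 2.

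**Figure D4:**
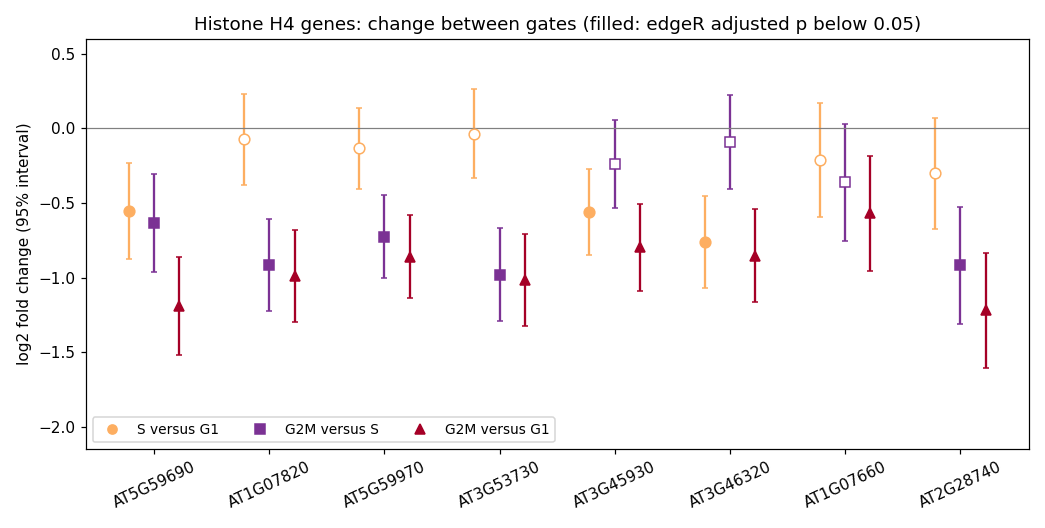
Log2 fold change of each H4 gene with its 95% interval in each pairwise comparison of the gates, filled where the edgeR adjusted p was under 0.05. All 8 genes are lower in G2M than in G1, 3 are called lower in S than in G1 and 5 in G2M than in S.

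In the G2M gate compared with the G1 gate all 8 H4 genes fell. Of all genes tested, 17.1% were called lower and 23.2% higher (edgeR), 40.3% in all, which is 4344 and 5882 genes, against 5650 lower and 4443 higher with upper-quartile factors. The median log2 fold change was -0.92 for the H4 genes against -0.14 over all genes. The values of both gates are those given above, and in every H4 gene both G2M libraries were below both G1 libraries. The share of all genes with that order was not counted, so the order only describes these libraries. AT2G28740 fell by 1.22 on the log2 scale (SE 0.18, edgeR adjusted p = 1.41e-04) and AT5G59690 by 1.19 (SE 0.15, adjusted p = 4.52e-05). AT3G53730 had a log2 fold change of -1.02 ± 0.14 (SE, edgeR adjusted p = 9.28e-05) and AT1G07820 of -0.99 ± 0.14 (SE, edgeR adjusted p = 1.19e-04). AT5G59970 stood at -0.86 ± 0.13 (edgeR adjusted p = 1.53e-04), AT3G46320 at -0.85 ± 0.14 (4.01e-04) and AT3G45930 at -0.80 ± 0.13 (4.20e-04). The smallest change was that of AT1G07660, -0.57 ± 0.18 (SE, edgeR adjusted p = 0.0219). AT1G07660 was not called without G1 replicate 1, G1 replicate 2 or G2M replicate 1, with edgeR adjusted p of 0.0959, 0.0736 and 0.283 at -0.55, -0.59 and -0.38. With GC and length offsets 6 of 8 were called, and AT2G28740, the gene with the lowest GC content, stood at -0.20 (edgeR adjusted p = 0.357).

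Set against the mean of the other gates, 1 H4 gene was higher in S and none lower, against 5.03% and 2.18% of all genes (edgeR, 7.21% in all). This was AT3G53730, with a log2 fold change of 0.47 ± 0.12 (SE, edgeR adjusted p = 0.0325), which came from an S level near that of G1 and above that of G2M. Its call was lost without either G1 library, S replicate 1 or either G2M library (edgeR adjusted p 0.0624 to 0.206). AT1G07820 stood at 0.42 (edgeR adjusted p = 0.0539) and AT3G46320 at -0.34 (edgeR adjusted p = 0.132). No H4 gene was higher in S than in both G1 and G2M by the pairwise tests.

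The share of a gene in the H4 counts of its own library needs no scaling between libraries. It is not free of GC content and length, and no share was computed with offsets for them. In S against G1 those offsets moved the genes unequally, as AT2G28740 from -0.30 to 0.45 and AT1G07820 from -0.07 to 0.11 (log2). AT3G45930 and AT3G46320 together took 16.3% and 16.1% of H4 counts for G1, 12.9% and 12.7% for S and 18.9% and 17.5% for G2M. The S libraries were the lowest of all. AT3G53730 took 10.1% and 10.6% for G1, 13.0% and 11.96% for S and 10.1% and 10.02% for G2M. For this gene the S libraries were the highest of all. The share of AT5G59690 was 29.4% and 28.9% for G1, 25.2% and 23.9% for S and 23.4% and 26.6% for G2M, so that its share was highest in G1 while S and G2M overlapped. AT1G07820 had 20.01% and 19.2% for G1, 21.3% and 24.8% for S and 19.5% for both G2M libraries, and was highest in S. Within the pair with near-identical upstream sequence, the ratio of AT3G46320 to AT3G45930 counts was 0.811 and 0.804 for G1, 0.704 and 0.701 for S and 0.764 and 0.787 for G2M. The ratio was thus lowest in S, and AT3G46320 had fewer counts than its mate in every library.

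The other core histones were set beside H4 by counts and medians. Of the 5 H3.1 genes, which encode the H3 used at replication, 2 fell in S against G1, 4 in G2M against S and 5 in G2M against G1, with median log2 fold changes of -0.43, -0.63 and -1.07. AT5G10390 had the largest change of them in S against G1 (-1.08 ± 0.19 SE, edgeR adjusted p = 0.00134), and AT5G65360 in G2M against G1 (-1.40). Of the 9 H2A genes, a list that includes the H2A.X and H2A.W variants, 1 fell in S against G1, 7 in G2M against S and 7 in G2M against G1. Their medians were -0.25, -0.63 and -1.04. The 2 not called in either G2M comparison were the H2A.X gene AT1G54690 and HTA12, which had 0.502 to 1.92 CPM. Of the 8 H2B genes, 2, 7 and 7 fell in the same comparisons, with medians of -0.09, -0.70 and -0.63, and reads of the H2B reporter may be among their counts. The H3.3 genes, which encode the H3 placed outside replication, had 1 of 3 higher in S than in G1 (AT4G40040, 0.70), 2 lower in G2M than in S, and 1 lower and 1 higher in G2M than in G1. Their median was 0.21 in that last comparison, against -0.92 for H4. The difference between the families was not tested.

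**Figure D5:**
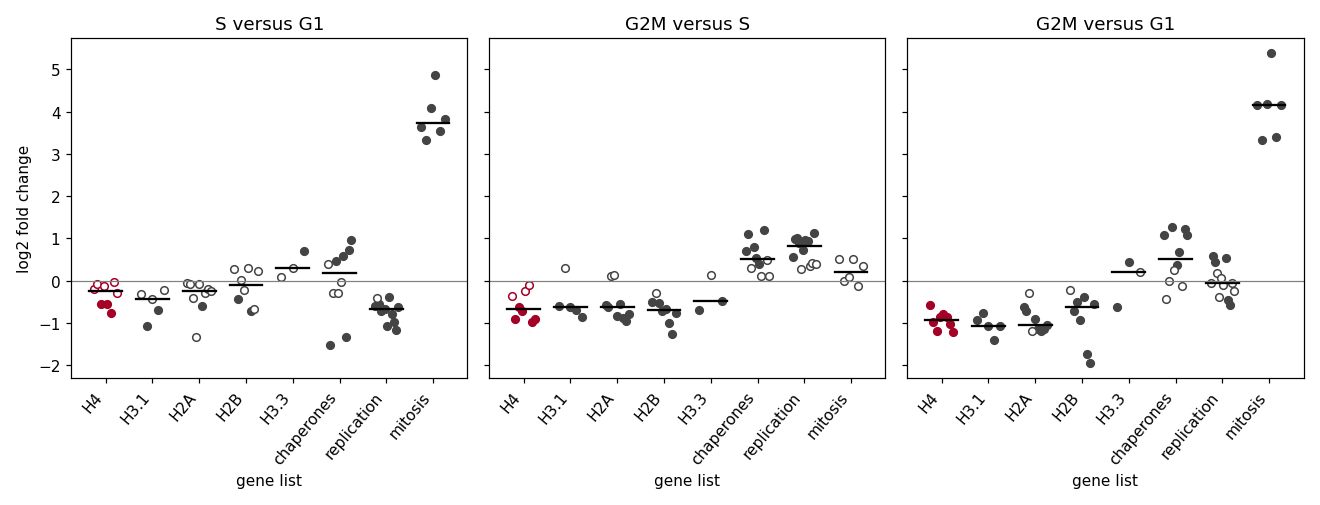
Log2 fold change of every gene (points, filled where the edgeR adjusted p was under 0.05) of the H4, H3.1, H3.3, H2A, H2B, chaperone, replication and mitosis lists, with each list's median (line), in each pairwise comparison of the gates. In G2M versus G1 the H4 median is -0.92, the H3.1 median -1.07 and the H3.3 median 0.21, and the mitosis median is 4.15.

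Histone chaperones bind histones and carry them to DNA. Of 10 chaperone and H4 acetylation genes, 2 fell and 4 rose in S against G1. Those that fell were FAS1 (-1.53 ± 0.19 SE, edgeR adjusted p = 1.70e-04) and FAS2 (-1.33), which encode subunits of CAF-1. In G2M against S 6 rose and none fell, led by FAS2 (1.20) and FAS1 (1.096), so that these CAF-1 genes were lowest in S. MSI1, the other CAF-1 subunit gene and one that also serves other complexes, rose in S against G1 (0.57, edgeR adjusted p = 0.00658) and was lowest in G1. In G2M against G1 6 rose and none fell, led by NRP1, a NAP1-related chaperone (1.26), and HIRA, which places H3.3 with H4 (1.23), while the 8 H4 genes fell. Of the 12 replication genes, 11 fell in S against G1, including CDT1A (-1.18) and MCM4 (-1.08), and 8 rose in G2M against S, including CDT1A (1.13) and MCM6 (1.013), where reads of the reporter may be among those of CDT1A. In G2M against G1 their median was -0.05, with 2 lower and 3 higher. All 6 mitosis genes rose in S against G1, with a median log2 fold change of 3.73, and in G2M against G1, with a median of 4.15, and none was called in G2M against S.

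Of the 8 H4 genes, 6 lie within 50 kb of an H2B gene. The nearest is AT2G28720, 1.54 kb from AT2G28740 with the 3′ ends facing, and its log2 fold changes were -0.68 in S against G1, -1.26 in G2M against S and -1.95 in G2M against G1, beside -0.30, -0.92 and -1.22 for AT2G28740. AT3G53650 lies 22.1 kb from AT3G53730, and its values were -0.73, -1.01 and -1.73, beside -0.04, -0.98 and -1.02. The neighbours therefore differed in S against G1, where AT3G53650 was called lower and AT3G53730 was not, though that difference was not tested. HTB1 lies 7.30 kb from AT1G07820 and 43.2 kb from AT1G07660, with values of 0.28, -0.49 and -0.21. HTB9 lies 13.3 kb from AT3G45930 (-0.21, -0.73 and -0.94) and HTB11 29.4 kb from it (0.29, -0.68 and -0.39). HTB4 lies 17.7 kb from AT5G59970 (0.02, -0.52 and -0.50), with the H2A gene HTA6 at 29.6 kb (-0.30, -0.89 and -1.19). AT3G46320 and AT5G59690 had no gene of the core histone lists within that distance.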

How the data were processed

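The values are raw counts of reads per gene, deposited by the authors without normalization. Trimmomatic 0.39, HISAT2 2.2.1, featureCounts and the build TAIR10 are named in the submitters' processing notes. The featureCounts version and options, the strandedness, the read length and the treatment of reads that map to several genes were not given in the sources used here. Per the labels' protocols, total RNA was made into cDNA with a SMART-Seq v4 kit and into libraries with an Ovation Ultralow V2 kit. A further deposited table, named TPM by the authors, has columns that sum to less than 1 and was not used. TPM was computed here, with exon lengths from the RefSeq TAIR10.1 annotation, from which genes, introns and sequences were also taken.

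Counts of all 32833 genes were filtered with filterByExpr, which left 25364, scaled by TMM and fitted over the 6 libraries with edgeR 4.0.16 in R 4.3.3 (glmQLFit and glmQLFTest, no covariates). P-values were adjusted over all genes tested by the Benjamini-Hochberg method, with a threshold of 0.05. With 2 libraries a gate, an exact permutation test of a single value cannot go below 0.333, two-sided, so none was used. Summed levels and shares have no test. All 8 H4 genes are described, and of every other list the counts and the 2 called members with the largest change, as far as they are named. The genes and lists were chosen with earlier results of these data known. Motif counts cover the plus and minus strands. Alternatives were DESeq2 1.42.0, limma-voom (limma 3.58.1), other scaling, no filter, a replicate block, no organelle genes, equal depth, offsets for GC and length, and each library left out.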

Additional observations from a re-analysis of the deposited data

How the results depend on the processing

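In fits that left out 1 library each, AT1G07660 was the H4 gene that lost its call in G2M against G1. Calls were also lost by AT2G28740, AT5G59690 and AT5G59970 in G2M against S, and by AT3G45930 and AT5G59690 in S against G1. In S against the mean of the other gates AT3G53730 lost its call, and AT1G07820 gained one without S replicate 1. How many of all genes were called changed with the library left out too. Replicate numbers did not pair the libraries (correlations of deviations of -0.0895, 0.0960 and -0.132), and with a replicate block 3, 5 and 8 H4 genes were lower, as without it. With GC and length offsets 0 were lower in S than in G1, 6 in G2M than in G1, and 4 were higher in S than the mean of the other gates. Of all 25364 genes, 2169, 4496 and 891 were called in the same directions with those offsets. In S against G1 the offsets turned AT1G07660 to 0.12, AT1G07820 to 0.11, AT2G28740 to 0.45, AT3G53730 to 0.23 and AT5G59970 to 0.074 (log2), and AT3G45930 to 0.11 in S against the mean. The cause was not tested. In S against the mean, the main fit called 1 H4 gene and 1277 of all 25364 genes higher. DESeq2 called 2 H4 genes and 1492 of 25364, no filter 2 and 1696 of 31249, and limma-voom 3 and 3648 of 25364. Without organelle genes it was 2 and 1364 of 25104, at equal depth 2 and 1315 of 21284, and with upper-quartile scaling 0 and 1071 of 25364. In that comparison 1 H4 gene was lower with DESeq2 and 1 with limma-voom, against 1197 and 2281 of all genes. There AT5G59690 stood at -0.0073 with DESeq2 and -0.036 with upper-quartile scaling, and AT1G07660 at -0.0058 with upper-quartile scaling and -0.061 with limma-voom. At equal depth AT3G46320 stood at 0.045 in G2M against S. Leaving out 1 library gave -0.10 to 0.024 for AT3G53730 and -0.23 to 0.051 for AT1G07820 in S against G1, -0.20 to 0.042 for AT3G46320 in G2M against S, and -0.15 to 0.26 for AT1G07660 and -0.094 to 0.17 for AT5G59690 in S against the mean. The summed level in G1 was 723 CPM with upper-quartile scaling, 687 CPM unscaled and 695 CPM without organelle genes, and in S it was 513 CPM with upper-quartile scaling and 560.1 CPM without organelle genes. That scaling moved the median of all genes to -0.10 in S against G1 and -0.36 in G2M against G1. Precision is limited by the 2 libraries per gate and, for AT2G28740, by counts of 139 and 349 in G2M and 260 in S replicate 2.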

Other observations

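Genes with a mean of at least 10 CPM were ranked by how closely their scaled level followed the summed H4 level over the 6 libraries, as the root mean square difference of log2 CPM centred on each gene's mean. Of 11561 genes, the nearest was AT1G09200, an H3.1 gene, at 0.0396. The next were AT1G13360 at 0.0460, the cyclophilin-like gene AT2G21130 at 0.0576, AT1G17145, annotated as a RING/U-box protein, at 0.0596, and AT1G69760 at 0.0610. Of the other histone genes, the H2A gene AT4G27230 ranked 13, HTB9 ranked 18, and the H3.1 genes AT3G27360 and AT5G10400 ranked 22 and 23. The ranking describes these 6 libraries, and a gene of any function that is highest in G1 and lowest in G2M by the same steps would rank high.

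In the 700 bases before the coding start, a window that holds the 5′ leader and its introns and was added after the upstream sequences had been seen, the core CGGATC was found in 7 of the 8 H4 genes, against 12.6% of all genes, and AT3G53730 was the one without it. The full octamer CGCGGATC was again found in 2 of 8, against 0.317% of all genes. AT3G53730 is also the gene with the longest exonic sequence before its coding start, 545 bases.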
